A study of Oryza sativa with 8 samples.

Results

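The 8 circadian clock genes described here are LHY (LOC_Os08g06110), PRR73 (LOC_Os03g17570), PRR37 (LOC_Os07g49460), PRR95 (LOC_Os09g36220), PRR59 (LOC_Os11g05930), GI (LOC_Os01g08700), PRR1 (LOC_Os02g40510) and ELF3 (LOC_Os06g05060). They were chosen by locus identifier from the 57403 rice genes of the deposited expression matrix, and the question put to them was whether treated and untreated plants differed in clock phase when they were collected. RNA-seq was run on whole 2-week-old hydroponic seedlings of 4 groups with 2 libraries each: ZH11 given 0.8 mM 2-nitroaniline for 8 h, untreated ZH11, OE1 given 0.8 mM 2-nitroaniline for 8 h, and untreated OE1. ZH11 is the wild-type rice, and OE1 is the 1 transgenic line used, which overexpresses ScOYE3. 2-Nitroaniline is an aromatic nitro compound. Each library came from a pool of 20 plants, and nothing in the labels tells separate cultures of a group apart, so the p-values below cover the spread between 2 pools, which may be technical. The promoter of the transgene, the light regime and the clock time of collection are not given in the labels. The transgene itself was not analysed here.

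The plant clock is a loop of transcription factors that repress each other in turn through the day. LHY, a MYB factor, is known to peak around dawn. The pseudo-response regulators follow, with PRR73 and PRR37 expressed in the day and PRR95 and PRR59 somewhat later, and PRR1, the rice counterpart of Arabidopsis TOC1, belongs to the evening. GI, a large plant-specific protein that links the clock to flowering time, also peaks late in the day. ELF3 is the scaffold of the evening complex, which in Arabidopsis it forms with ELF4 and LUX. A shift in phase does not move dawn genes and evening genes alike, so the levels of LHY and of PRR1 or GI are read against each other. The matrix's protein matches named 6 of the 8 genes as above, while its best match for PRR59 was PRR95 and that for ELF3 was HEADING DATE 3B, a name also used for a rice ELF3 gene.

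Values are in TPM, the authors' deposited measure of transcript level, which is scaled for gene length and for the library total. The libraries held 42.1 M to 56.5 M trimmed reads, of which 92.1 to 93.4% were placed at 1 position. One library stood apart. In treated ZH11 replicate 2, genes of the length of the clock genes (2358 to 4359 nt, 5196 genes) had a median log2(TPM + 1) that was 0.48 above their mean over the 8 libraries. The same median was between -0.24, in treated OE1 replicate 2, and 0.05 in the other 7 libraries. Treated ZH11 replicate 2 and untreated ZH11 replicate 2 also had longer trimmed reads on average, 149 and 149.8 nt, against 145.0 to 146.9 nt in the other 6. The fold changes of the clock genes as a set are therefore also given with the length gradient removed from every library, and those of treatment in ZH11, of OE1 over ZH11 with treatment and of the difference between the treatment effects also without treated ZH11 replicate 2; values of single genes and of the other gene lists are as deposited unless stated. Both kinds of tissue in the whole-plant label were detected. The summed TPM of 26 genes with a chlorophyll a-b binding domain, used as markers of green shoot tissue and including light-harvesting and early light-induced proteins and a ferrochelatase, was 20099.7 to 26191 in treated ZH11, against 35014 to 35355 in untreated ZH11, and 28276 to 28283 in treated OE1, against 31853 to 33088 in untreated OE1. The summed TPM of 4 root genes was 443 to 592 in treated ZH11, against 502 to 525 in untreated ZH11, and 534 to 618 in treated OE1, against 747 to 752.5 in untreated OE1. No marker gene was at 0 in all 8 libraries, and 1 of the 26 (LOC_Os07g08150, an early light-induced protein match, at most 1.96 TPM) was at 0 in 1 library. By limma, 0 of 26 and 0 of 4 were called for treatment, beside 0.289% of all genes in ZH11 and 0.241% in OE1. At an unadjusted p under 0.05 there were 14 of 26 shoot markers and 0 of 4 root markers in ZH11, beside 12.7% of all genes, and 5 of 26 and 3 of 4 in OE1, beside 9.44%. The median log2 fold change of the shoot markers was -0.50 in ZH11 and -0.14 in OE1, and that of the root markers was 0.03 in ZH11 and -0.72 in OE1. Most of the shoot markers are shorter than the clock genes. In treated ZH11 replicate 2 the median deviation was -0.41 for all tested genes of up to 1000 nt and -0.16 for those of 1000 to 1500 nt. The marker values were not corrected for length. The part of the marker genes in the results below was not tested, and in pooled whole plants fewer cells of a type and less RNA per cell cannot be told apart.

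The clock genes stood in nearly the same order of level in all 8 libraries, treated or not and with or without the transgene. GI was the highest and LHY, the dawn gene, was the lowest in every library. Between them came PRR95, PRR73, PRR1, then PRR37 and PRR59, and then ELF3. PRR37 and PRR59 were the only pair to change places, with PRR37 above PRR59 in 5 of 8 libraries and a ratio of 0.905 to 1.05, so these neighbours did not differ beyond their spread. The other neighbours kept their order within every library, although most of their ranges over the libraries overlapped. GI was 1.92 to 3.02 times PRR95, PRR95 was 1.09 to 1.67 times PRR73, and PRR73 was 1.64 to 2.2 times PRR1. PRR1 was 1.26 to 1.47 times PRR37, PRR59 was 1.20 to 1.97 times ELF3, and ELF3 was 1.68 to 2.49 times LHY.

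**Figure D1:**
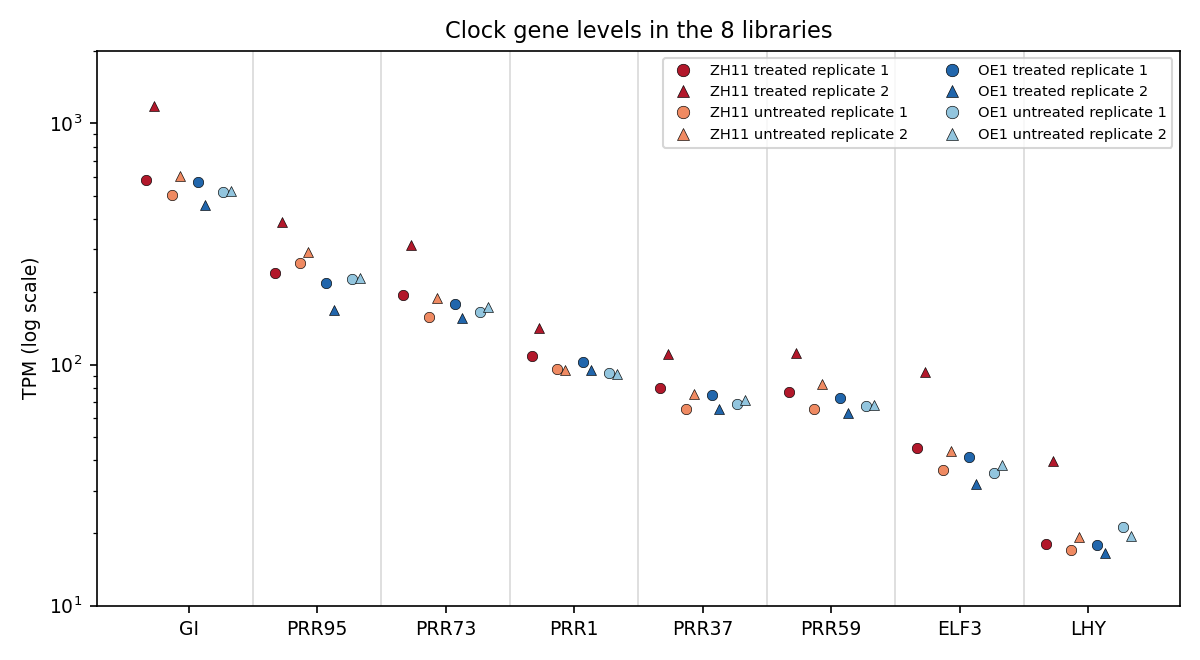
Level of each of the 8 clock genes in each library, in TPM on a log axis, with genes ordered by their mean and 1 point per library. Treated ZH11 replicate 2 (dark red triangles) is the highest point for all 8 genes, and the other 7 libraries lie close together.

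LHY, the dawn gene, had 18.1 and 39.9 TPM in treated ZH11, against 17.1 and 19.2 TPM in untreated ZH11. In OE1 it had 17.9 and 16.5 TPM in treated plants, against 21.1 and 19.4 TPM in untreated plants. The groups overlapped in ZH11, where replicate 2 of the treated plants was far above the other 3 libraries, and did not overlap in OE1, where both treated libraries were slightly lower. The log2 fold change was 0.55 ± 0.32 (SE) in ZH11, with an adjusted p of 0.497, and -0.22 ± 0.32 in OE1, with an adjusted p of 1 (limma, Benjamini-Hochberg over 25281 genes).

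PRR73 and PRR37, the day-phase regulators of which PRR37 is also known as a heading-date gene, were both somewhat higher in the treated ZH11 libraries. PRR73 had 195 and 312 TPM in treated ZH11, against 158 and 189 TPM in untreated ZH11, and 179 and 156 TPM in treated OE1, against 165 and 173 TPM in untreated OE1. PRR37 had 79.8 and 110.4 TPM in treated ZH11, against 65.1 and 75.3 TPM in untreated ZH11, and 74.9 and 65.6 TPM in treated OE1, against 68.4 and 71.4 TPM in untreated OE1. For both genes the ZH11 groups did not overlap, and the untreated OE1 libraries lay between the treated OE1 ones. The log2 fold changes in ZH11 were 0.51 ± 0.23 for PRR73 and 0.42 ± 0.19 for PRR37, with adjusted p-values of 0.413 and 0.409, and those in OE1 were -0.02 and 0.00, each with an adjusted p of 1 (limma).

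PRR95 and PRR59, the later pseudo-response regulators, overlapped between treated and untreated ZH11. PRR95 had 239 and 390.2 TPM in treated ZH11, against 263 and 292 TPM in untreated ZH11, and 218 and 169 TPM in treated OE1, against 226 and 229 TPM in untreated OE1. PRR59 had 77.0 and 112 TPM in treated ZH11, against 65.7 and 83.2 TPM in untreated ZH11, and 72.8 and 62.9 TPM in treated OE1, against 67.1 and 68.2 TPM in untreated OE1. PRR95 was lower in both treated OE1 libraries than in either untreated one, with a log2 fold change of -0.24 ± 0.24 and an adjusted p of 0.973 (limma). Its log2 fold change in ZH11, 0.14 ± 0.24, was the smallest of the 8 there, and that of PRR59 was 0.33 ± 0.21.

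GI, the most abundant of the 8, had 583 and 1180.0 TPM in treated ZH11, against 506 and 606 TPM in untreated ZH11. In OE1 it had 573 and 461 TPM in treated plants, against 519 and 522 TPM in untreated plants. Only treated ZH11 replicate 2 lay outside a narrow band, and both pairs of groups overlapped. The log2 fold change was 0.58 ± 0.31 in ZH11 (adjusted p = 0.466) and -0.02 ± 0.31 in OE1 (adjusted p = 1, limma).

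PRR1, the evening regulator, varied least with the library that stood apart. It had 108 and 142 TPM in treated ZH11, against 95.5 and 94.5 TPM in untreated ZH11, and 102 and 94.8 TPM in treated OE1, against 92.1 and 91.0 TPM in untreated OE1. As deposited, it was the 1 clock gene that was higher in both treated libraries than in both untreated libraries of each genotype. The log2 fold change was 0.38 ± 0.16 in ZH11, with a 95% interval of 0.01 to 0.75, an unadjusted p of 0.0459 and an adjusted p of 0.389, and 0.10 ± 0.16 in OE1, with an adjusted p of 1 (limma). With the length gradient removed, PRR37, PRR59 and GI were also higher in both treated libraries of each genotype. The share of all genes that were so in both genotypes was not computed.

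ELF3, the evening complex scaffold, had 45.0 and 93.1 TPM in treated ZH11, against 36.5 and 43.6 TPM in untreated ZH11. In OE1 it had 41.3 and 32.0 TPM in treated plants, against 35.6 and 38.4 TPM in untreated plants. The ZH11 groups did not overlap, although treated replicate 1 was only just above untreated replicate 2, and the OE1 groups overlapped. Its log2 fold change in ZH11, 0.69 ± 0.32 (adjusted p = 0.425, limma), was the largest of the 8, and that in OE1 was -0.02 ± 0.32.

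No clock gene passed the test between treated and untreated plants in either genotype. A gene was called changed at an adjusted p under 0.05 with a log2 fold change of at least 1. In ZH11, 0 of 8 clock genes were called, beside 0.289% of all genes tested, and 1 of 8 had an unadjusted p under 0.05, beside 12.7% of all genes (limma). As deposited, the groups did not overlap, with treated ZH11 higher, for 4 of 8 (PRR73, PRR37, PRR1 and ELF3), beside 15.9% of all genes, and for 0 of 8 in the other direction, beside 18.4%. All 8 log2 fold changes were above 0, with a median of 0.46, against 0.02 over all genes tested. With the length gradient removed, the ZH11 groups of LHY, PRR59 and GI did not overlap either, with treated ZH11 higher. Those of PRR95 still overlapped. Such separations were not counted over all genes after that correction. In OE1, as deposited, 0 of 8 were called, beside 0.241% of all genes, and 0 had an unadjusted p under 0.05, beside 9.44% (limma). There, 3 of 8 log2 fold changes were above 0 and their median was -0.02, against -0.04 over all genes tested. With the libraries rescaled by TMM or median-of-ratios factors, 6 of 8 were above 0 in OE1, and with the length gradient removed 6 of 8 were above 0 with a median of 0.07. As deposited, the treated OE1 libraries were both higher for 1 gene (PRR1), beside 23.8% of all genes, and both lower for 2 genes (LHY and PRR95), beside 28.6%. With the length gradient removed, PRR37, PRR59 and GI were also higher in both treated OE1 libraries, and LHY and PRR95 were still lower in both.

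The 95% intervals show what change these libraries could still hold. In every comparison the spread of a gene was shared by the 4 groups, treated ZH11 replicate 2 included. The SE of a gene was therefore the same in OE1 as in ZH11 (0.32 for LHY), and the OE1 widths are not the spread of OE1 alone. In OE1, the intervals of all 8 clock genes lay within a 2-fold change in either direction, the widest reaching a log2 fold change of -0.98 for LHY. In ZH11, the intervals of PRR37, PRR95, PRR59 and PRR1 lay within 2-fold, and those of LHY, PRR73, GI and ELF3 reached a log2 fold change of 1.30, 1.05, 1.31 and 1.44. Averaged over both genotypes, the log2 fold change of treatment was between -0.05 (PRR95) and 0.33 (ELF3), and all 8 intervals lay within 2-fold. With the length gradient removed it was between -0.08 (PRR95) and 0.28 (ELF3). As deposited, none of the 8 was called in that average, beside 0.542% of all genes, and 0 had an unadjusted p under 0.05, beside 14.6% (limma). With the length gradient removed none was called either, but the intervals of 4 of 8 (PRR73, GI, PRR1 and ELF3) lay above 0. The lowest adjusted p was then 0.155, for PRR1 (limma), and that interval count was not made over all genes.

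**Figure D2:**
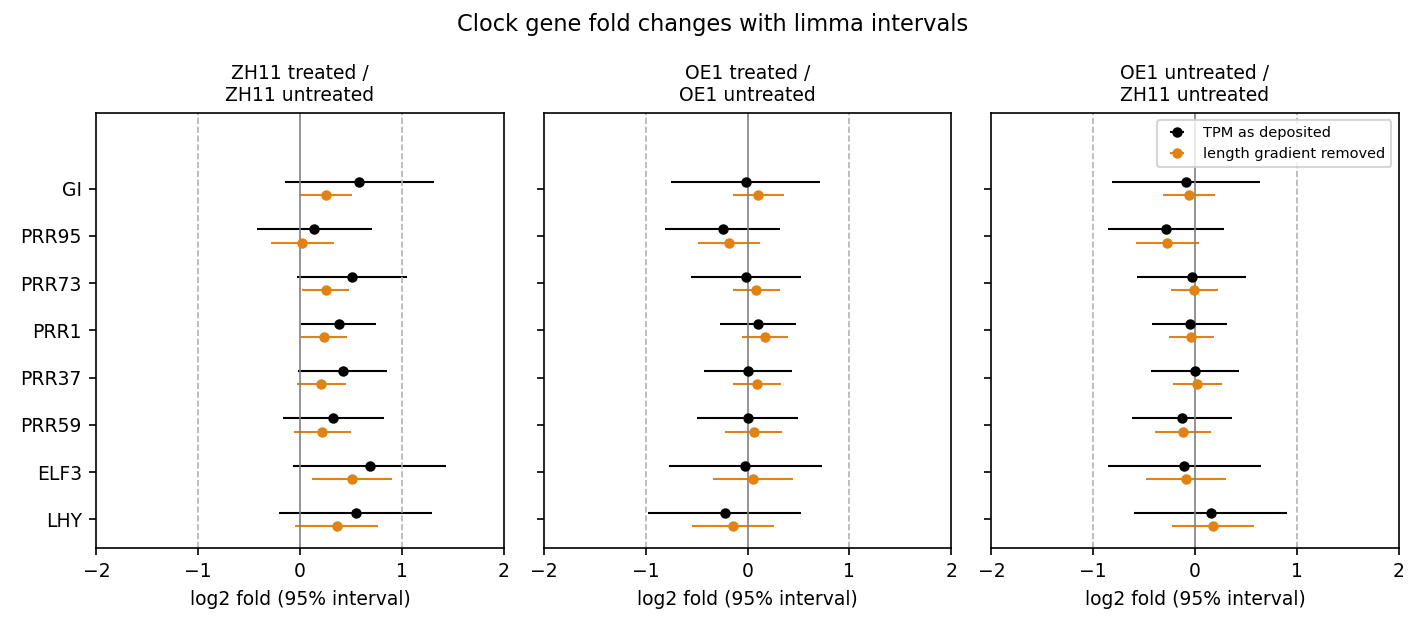
Log2 fold change of each clock gene with its 95% interval from limma, for treatment in ZH11, treatment in OE1, and OE1 over ZH11 without treatment; black points are TPM as deposited and orange points have the length gradient removed. Dashed lines mark a 2-fold change; in ZH11 the black points lie between 0.14 and 0.69 and the orange ones between 0.02 and 0.51.

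As deposited, the higher values in treated ZH11 were mostly those of 1 library. All 8 clock genes were highest in treated ZH11 replicate 2. In the other 7 libraries the highest value was under 1.5 times the lowest for 7 of 8 genes, and 1.73 times for PRR95. Without treated ZH11 replicate 2, the median log2 fold change of the 8 genes in ZH11 was 0.12, with 6 of 8 above 0, against 0.46 with it. Without treated ZH11 replicate 1 instead, the median was 0.75 and 3 genes (LHY, GI and ELF3) were called higher, beside 10.4% of all genes (limma). Treated ZH11 is then replicate 2 alone, and its spread is assumed to be that of the other groups.

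Gene length moved with this result. In treated ZH11 replicate 2 the deviation from the 8-library mean was 0.94 for LHY, 0.74 for PRR73, 0.55 for PRR37, 0.66 for PRR95, 0.58 for PRR59, 0.99 for GI, 0.48 for PRR1 and 1.09 for ELF3 on the log2 scale. With the gradient removed, the excess of the clock genes in that library had a median of 0.27, and was 0.03 for PRR37, 0.10 for PRR1, 0.47 for LHY and 0.65 for ELF3. LHY and ELF3 thus kept the largest excess over genes of like length. The treatment fold changes in ZH11 then had a median of 0.24, against 0.46 as deposited, with ELF3 at 0.51 ± 0.17 (adjusted p = 0.193), LHY at 0.36 ± 0.17 (adjusted p = 0.325) and PRR1 at 0.23 ± 0.09 (adjusted p = 0.265). With this correction 0 of 8 were called, beside 0.657% of all genes, and 4 of 8 had an unadjusted p under 0.05, beside 18.0% (limma). All 8 intervals then lay within 2-fold. With the gradient removed and treated ZH11 replicate 2 also left out, the median was 0.23, with 7 of 8 above 0. Treated replicate 1 was set against untreated replicate 1 as the pair with shorter reads, and treated replicate 2 against untreated replicate 2 as the pair with longer reads. As deposited, the median log2 difference of the 8 genes was 0.21 in the shorter-read pair and 0.65 in the longer-read pair. With the gradient removed it was 0.26 in the shorter-read pair and 0.20 in the longer-read pair, and in that pair LHY and ELF3 were at 0.59 and 0.68. Each pair is 1 library against 1, with no replicate check, and untreated ZH11 replicate 2, which also had the longer reads, had a median deviation of 0.05 for genes of this length. With a term for read length in the model, the ZH11 treatment fold changes as deposited kept a median of 0.46. The intervals of 7 of 8 genes then excluded 0, against 1 of 8 without the term, and 0 of 8 were called. Adjusted p-values were 0.149 to 0.672 (limma), and that interval count was not made over all genes. Intervals of LHY, GI and ELF3 still reached beyond 2-fold. Whether read length caused the result was not tested.

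**Figure D3:**
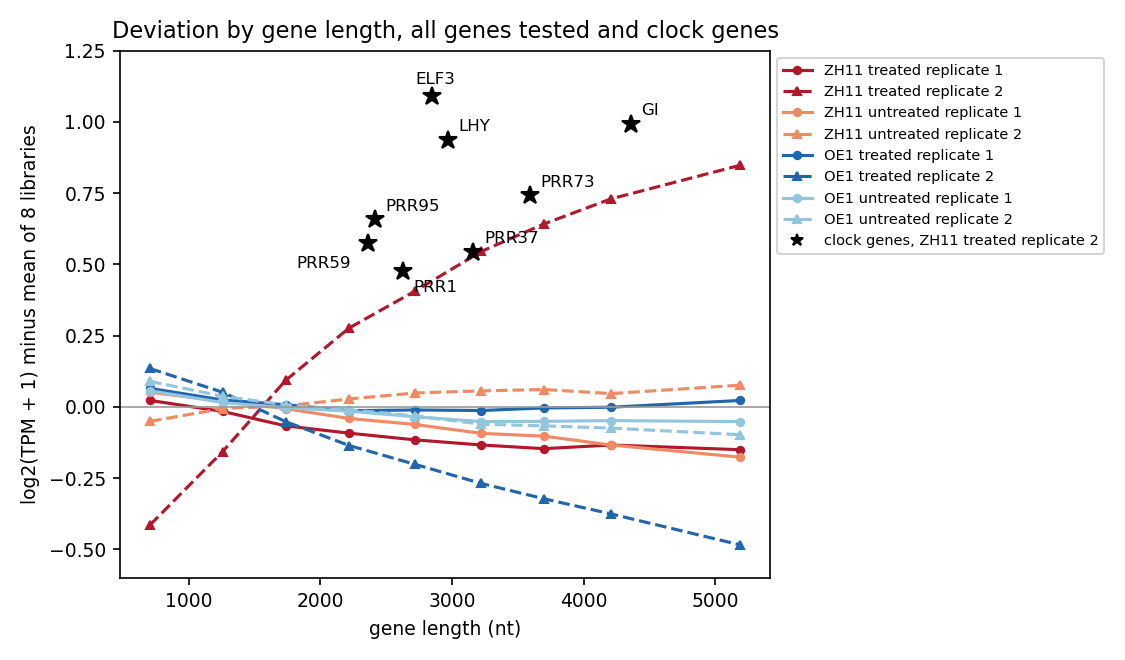
Median deviation of log2(TPM + 1) from the 8-library mean against gene length in nt, 1 line per library over all genes tested, with stars for the 8 clock genes in treated ZH11 replicate 2. The line of that library climbs with length. PRR1 and PRR37 sit near it, while ELF3, LHY, PRR95, PRR59 and GI sit above it.

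The dawn and evening genes of one library were then set against each other, which takes out any factor that scales a whole library. LHY minus PRR1, as a difference of log2(TPM + 1), was -2.52 and -1.80 in treated ZH11, against -2.42 and -2.24 in untreated ZH11. In OE1 it was -2.45 and -2.45 in treated plants, against -2.07 and -2.17 in untreated plants. LHY was thus far below PRR1 in every library, the ZH11 groups overlapped, and the treated OE1 libraries were both lower. In OE1 the margin was larger than either gap between replicates. It stayed so with the length gradient removed, at -2.45 and -2.41 in treated OE1, against -2.06 and -2.16 in untreated OE1. PRR73 minus PRR1, the day gene against the evening gene, was 0.84 and 1.13 in treated ZH11, against 0.72 and 0.99 in untreated ZH11. In OE1 it was 0.80 and 0.71 in treated plants, against 0.83 and 0.92 in untreated plants. The ZH11 groups overlapped again, and the treated OE1 libraries were lower by a margin smaller than the gap between replicates. GI minus LHY was 4.93 and 4.85 in treated ZH11, against 4.81 and 4.91 in untreated ZH11. In OE1 it was 4.92 and 4.72 in treated plants, against 4.55 and 4.68 in untreated plants. GI was 24.6 to 32.2 times LHY in TPM over all 8 libraries. The ZH11 values overlapped. As deposited, the treated OE1 values were both above the untreated ones, again by a margin smaller than the gap between replicates. With the length gradient removed, GI minus LHY was 4.92 and 4.86 in treated OE1, against 4.57 and 4.71 in untreated OE1. That margin was slightly larger than either gap between replicates. With the length gradient removed, LHY minus PRR1 lay between -2.51 and -1.89, PRR73 minus PRR1 between 0.77 and 0.97, and GI minus LHY between 4.57 and 4.96 over the 8 libraries. These differences are given without a test.

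**Figure D4:**
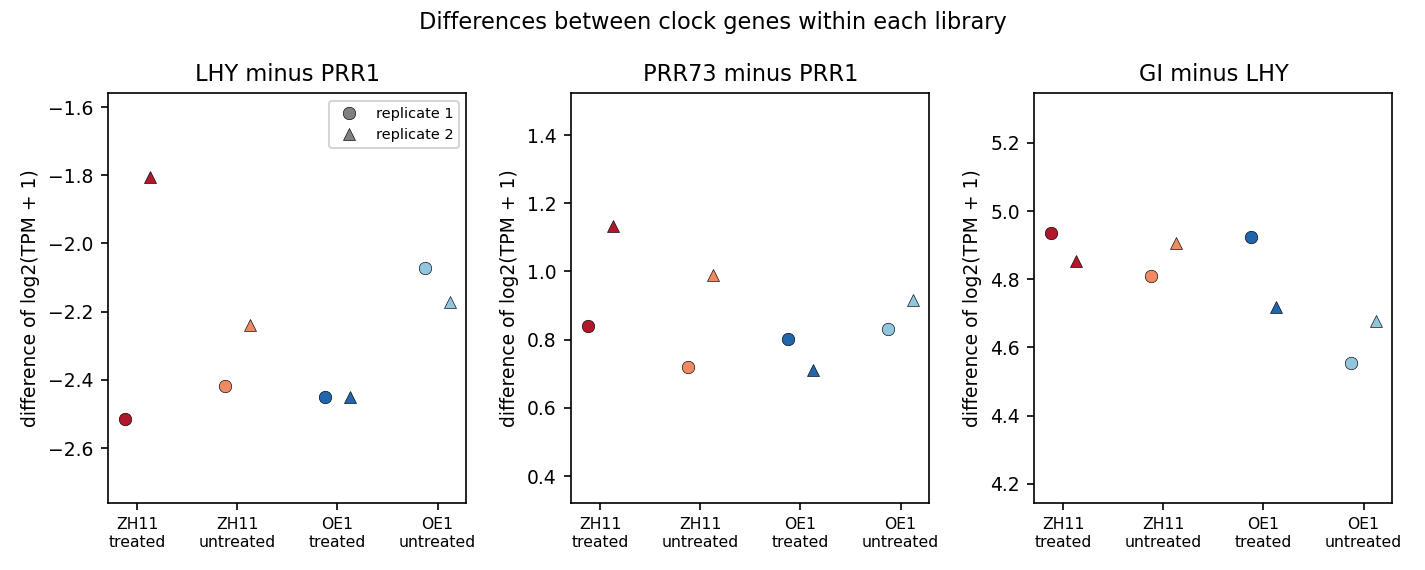
Differences of log2(TPM + 1) between pairs of clock genes within each library, 1 point per library, with each vertical axis spanning the same 1.2 log2 units. The treated and untreated ZH11 points overlap in all 3 panels. The treated OE1 points lie below the untreated ones for LHY minus PRR1. For GI minus LHY, as deposited, they lie above them, by less than the gap between replicates.

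No clock gene passed the test between the transgenic line and wild type without treatment. In untreated OE1 over untreated ZH11, 0 of 8 were called, beside 0.443% of all genes, and 0 had an unadjusted p under 0.05, beside 4.94% (limma). The log2 fold changes lay between -0.28 ± 0.24 (PRR95) and 0.15 ± 0.32 (LHY), with a median of -0.07, against 0.01 over all genes, and all 8 intervals lay within 2-fold. LHY was higher in both untreated OE1 libraries, beside 21.7% of all genes, and PRR95 and PRR1 were lower in both, beside 19.6%. With the length gradient removed, the median was -0.05 and 2 of 8 were above 0. With a term for read length, the median was 0.18 and 7 of 8 log2 fold changes were above 0, so no direction is given for the set.

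With treatment, all 8 clock genes were lower in both OE1 libraries than in either ZH11 library, beside 19.3% of all genes in this direction, and 0 of 8 were higher in both, beside 23.0%. The comparison shares the treated ZH11 libraries with the one above, treated replicate 2 among them. None of the 8 was called, beside 0.953% of all genes, and 3 had an unadjusted p under 0.05 (PRR73, PRR95 and ELF3), beside 15.1% (limma). The log2 fold changes lay between -0.82 ± 0.32 (ELF3) and -0.33 ± 0.16 (PRR1), with a median of -0.59, against -0.03 over all genes, and adjusted p-values of 0.280 to 0.378. Without treated ZH11 replicate 2 the median was -0.18, and with the length gradient removed it was -0.24. Without treated ZH11 replicate 1 it was -0.96, and 4 genes (LHY, PRR95, GI and ELF3) were called lower, beside 15.2% of all genes, again with replicate 2 as the only treated ZH11 library. The treatment effect in OE1 minus that in ZH11 lay between -0.77 ± 0.45 (LHY) and -0.28 ± 0.22 (PRR1), with an adjusted p of 0.805 each (limma). None of the 8 was called for this difference, beside 0.0316% of all genes, and 0 had an unadjusted p under 0.05, beside 6.45%. That difference had a median of -0.47, against -0.14 without treated ZH11 replicate 2 and -0.16 with the length gradient removed. Without treated ZH11 replicate 1 its median was -0.80, and LHY, GI and ELF3 were called, beside 10.7% of all genes, with the same assumption about the spread. The authors' deposited tables of changed genes, which list 115 genes for treatment in ZH11, 531 for treatment in OE1, 175 for OE1 over ZH11 untreated and 260 for OE1 over ZH11 treated, held 0 of the 8.

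The nearest partners of the clock genes were the other evening complex genes and the F-box photoreceptors, 9 genes that all passed the filter on low values. None was called for treatment in either genotype, beside 0.289% of all genes in ZH11 and 0.241% in OE1. At an unadjusted p under 0.05 there was 1 of 9 in ZH11, beside 12.7% of all genes, and 0 of 9 in OE1, beside 9.44% (limma). Their median log2 fold changes were 0.08 in ZH11 and -0.03 in OE1. PCL1, the LUX counterpart, had 137 and 111 TPM in treated ZH11, against 119 and 84.7 TPM in untreated ZH11, and 178 and 192 TPM in treated OE1, against 139 and 154 TPM in untreated OE1. It was higher in each OE1 group than in the ZH11 group of the same treatment, with log2 fold changes of 0.54 ± 0.20 without treatment and 0.58 ± 0.20 with it, neither called (adjusted p = 0.850 and 0.258, limma). ELF3-2, the second rice ELF3 gene, had 70.7 and 118.5 TPM in treated ZH11, against 49.1 and 54.6 TPM in untreated ZH11, and 61.3 and 58.1 TPM in treated OE1, against 48.4 and 50.8 TPM in untreated OE1. Both treated libraries were thus higher in each genotype, with log2 fold changes of 0.81 ± 0.23 (adjusted p = 0.239) in ZH11 and 0.26 ± 0.23 (adjusted p = 0.938) in OE1 (limma). ZTL1, an F-box protein that in Arabidopsis targets clock proteins for degradation, had 55.6 and 72.2 TPM in treated ZH11, against 59.6 and 60.2 TPM in untreated ZH11, and 57.3 and 43.7 TPM in treated OE1, against 62.0 and 61.4 TPM in untreated OE1.

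**Figure D5:**
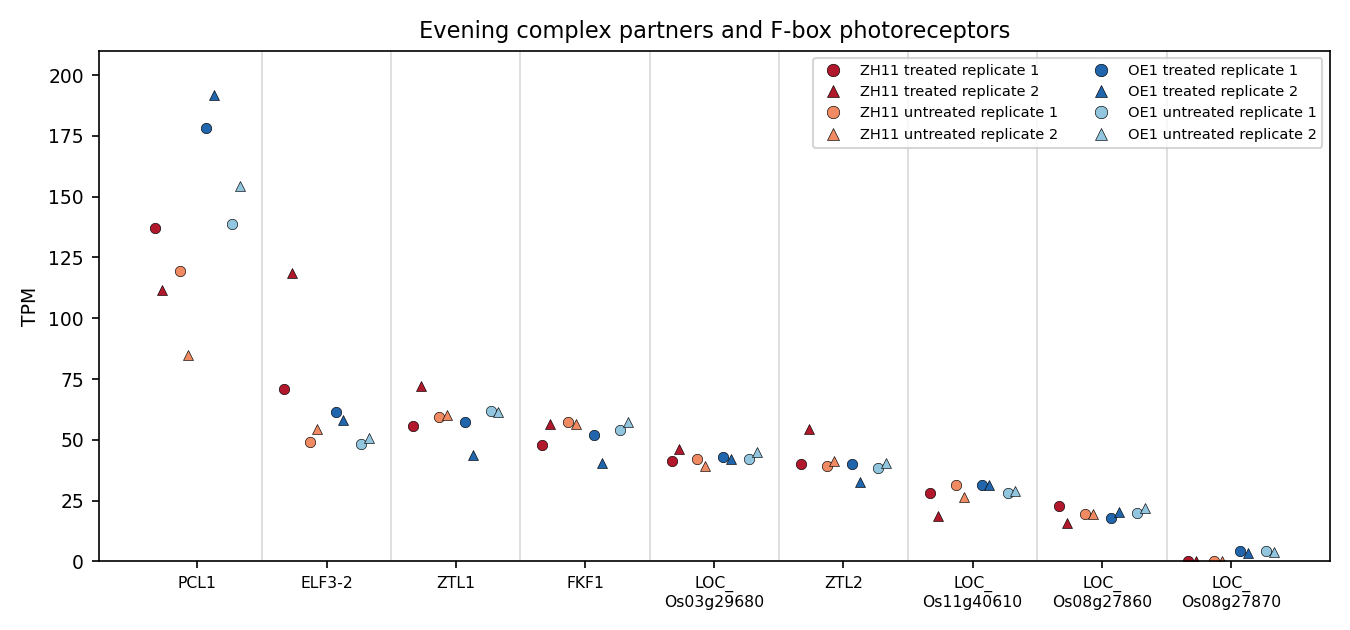
Level in TPM of the 9 evening complex partners and F-box photoreceptors in each library, ordered by mean level, with 1 point per library on a linear axis that starts at 0. PCL1 is higher in OE1 than in ZH11 within each treatment, and LOC_Os08g27870 is near 0 in ZH11 and at 3.63 to 4.32 TPM in OE1.

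The 1 gene of that list that differed by the test was LOC_Os08g27870. It was called for OE1 over ZH11, as 1 of 9 without treatment, beside 0.443% of all genes, and 1 of 9 with it, beside 0.953%. This short gene of 594 nt has ELF4-LIKE 2 as its best protein match, and in Arabidopsis ELF4 is a subunit of the evening complex. It had 4.32 and 3.63 TPM in treated OE1, against 0.06 and 0 TPM in treated ZH11, and 4.10 and 3.70 TPM in untreated OE1, against 0.16 and 0 TPM in untreated ZH11. The OE1 libraries were all higher than the ZH11 libraries, at a low level, and its treatment comparison passed the test in neither line (adjusted p = 1 in OE1 and 0.903 in ZH11, limma). On the log2(TPM + 1) scale, which understates changes of low genes, it was higher in OE1 by 2.18 ± 0.22 without treatment (adjusted p = 0.00783) and 2.27 ± 0.22 with it (adjusted p = 0.00571, limma). The call held in 13 of 18 alternative settings without treatment, with log2 fold changes of 0.81 to 4.63, and in 15 of 19 with it, with 0.83 to 5.0. The size of the change at this low level thus moved with the setting, while its direction did not. The authors' deposited tables also listed it for both comparisons, with log2 fold changes of 6.93 and 6.88. Its neighbour LOC_Os08g27860, an ELF4-LIKE 4 match of 1176 nt, had 15.7 to 23.0 TPM over the 8 libraries. The sequences of the 2 genes were not compared, and any reads that fit both would make the values of both uncertain.

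Genes upstream and downstream of the clock were read in the same way, and none of the lists below held a gene called for treatment in either genotype. Of 8 MYB relatives of LHY in the annotation, 6 passed the filter. Their median log2 fold change was 0.13 in ZH11 and -0.08 in OE1. The most abundant, LOC_Os06g45840 (a REVEILLE 6 match), had 27.1 and 24.6 TPM in treated ZH11, against 27.6 and 23.3 TPM in untreated ZH11, and 26.9 and 25.4 TPM in treated OE1, against 25.3 and 25.8 TPM in untreated OE1. LOC_Os06g01670, a REVEILLE 8 match, had 18.3 to 28.8 TPM and LOC_Os02g45670, a REVEILLE 6 match, had 8.90 to 18.9 TPM over the 8 libraries, both highest in treated ZH11 replicate 2.

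The light receptors that set the clock were highest in the same library. The 6 phytochromes and cryptochromes all passed the filter, had a median log2 fold change of 0.45 in ZH11 and 0.04 in OE1, and were all highest in treated ZH11 replicate 2. CRY2 had 77.8 and 93.0 TPM in treated ZH11, against 63.1 and 74.3 TPM in untreated ZH11, and 70.7 and 54.9 TPM in treated OE1, against 59.6 and 58.4 TPM in untreated OE1. PHYC had 45.0 and 100.2 TPM in treated ZH11, against 36.5 and 46.1 TPM in untreated ZH11, and 51.3 and 33.1 TPM in treated OE1, against 43.0 and 39.4 TPM in untreated OE1. CRY1b had 51.2 to 104.7 TPM over the 8 libraries. These genes are 2887 to 4286 nt long, within the range of the clock genes.

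Among flowering-time genes downstream of the clock, Hd1 and DTH8 passed the filter. Hd1, the rice counterpart of CONSTANS, had 6.51 and 8.86 TPM in treated ZH11, against 4.96 and 4.87 TPM in untreated ZH11, and 5.56 and 7.32 TPM in treated OE1, against 4.76 and 4.89 TPM in untreated OE1. Both treated libraries were higher than both untreated ones in each genotype, with a log2 fold change of 0.54 ± 0.21 in ZH11 (adjusted p = 0.360) and 0.34 ± 0.21 in OE1 (adjusted p = 0.778, limma). DTH8 had 1.61 to 3.11 TPM and Ghd7 at most 0.58 TPM. Ehd1 and Hd3a were listed at 0 in all 8 libraries.

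The KEGG plant circadian rhythm pathway held 47 other genes in the annotation, of which 28 passed the filter. Among the 47 are 4 genes of the evening complex list, 5 light receptors and 2 genes of the flowering-time list. None of the 28 was called for treatment, beside 0.289% of all genes in ZH11 and 0.241% in OE1. At an unadjusted p under 0.05 there were 2 of 28 in ZH11, beside 12.7% of all genes, and 6 of 28 in OE1, beside 9.44% (limma). Their median log2 fold change was 0.15 in ZH11 and -0.05 in OE1. For OE1 over ZH11 with treatment, 1 of 28 was called, beside 0.953% of all genes. The 1 called gene was LOC_Os11g32650, a chalcone synthase 1 match and so an enzyme of flavonoid synthesis, known in Arabidopsis as a clock output. It had 47.5 and 44.0 TPM in treated OE1, against 97.3 and 92.2 TPM in treated ZH11, and 83.1 and 82.7 TPM in untreated OE1, against 114 and 102 TPM in untreated ZH11. It fell by 1.04 on the log2 scale in treated OE1 relative to treated ZH11 (SE 0.13, adjusted p = 0.0181, limma), a call that held in 9 of 19 alternative settings, whose log2 fold changes lay between -1.12 and -0.95. Treatment in OE1 gave -0.85 ± 0.13 with an adjusted p of 0.0628, and treatment in ZH11 gave -0.19 ± 0.13 with an adjusted p of 0.543 (limma). The 260 genes that the authors listed for OE1 over ZH11 treated did not include LOC_Os11g32650. The most abundant genes of the list, LOC_Os07g31280 and LOC_Os10g41520, both casein kinase II beta subunit matches, had 122 to 163 and 111 to 167 TPM.

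The genes most like LHY, PRR1 and GI in their profile over the 8 libraries were sought among annotated genes of at least 5 TPM on average and of like spread, by the root mean square (RMS) difference of centred log2(TPM + 1). The nearest to LHY was LOC_Os04g40090, a JOKA2 match, at an RMS difference of 0.06, with 48.7 TPM in treated ZH11 replicate 2 and 19.0 to 22.5 TPM in the other 7 libraries. The nearest to PRR1 was LOC_Os01g13730, a DDB1- and CUL4-associated factor 13 match, at an RMS difference of 0.03, with 43.3 TPM in that library and 25.6 to 30.4 TPM in the others. The nearest to GI was LOC_Os01g52250, a starch synthase 4 match of 5093 nt, at an RMS difference of 0.03, with 17.7 TPM in that library and 6.46 to 8.53 TPM in the others. The rule named 15 genes, 5 for each clock gene, and none was one of the 8 clock genes. As the 3 profiles are dominated by treated ZH11 replicate 2, the rule itself picks genes that are highest there.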

How the data were processed

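The authors deposited TPM per gene, a gene length, and tables of their own comparisons with a log2 fold change and an adjusted p-value; their deposited read statistics give counts of trimmed reads, reads placed at 1 position and the percent of G and C. Cufflinks 2.2.1 is named in the submitters' processing notes, with no role; aligner and genome build are not given in the sources used here. Gene counts were not used here, so the counting error of each value is unknown.

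The members and lists were chosen with earlier results of these data known. The 25281 genes that reached 1 TPM in 2 or more of the 8 libraries were fitted as log2(TPM + 1) with limma 3.58.1 (R 4.3.3), 4 group means and a trended eBayes variance. Calls needed an adjusted p below 0.05 (Benjamini-Hochberg, over every gene tested) and a change of 2-fold or more. TMM factors came from edgeR 4.0.16. The length gradient was removed per library with a lowess curve (span 0.5) of the deviation on gene length. Named genes were the 8 members, the genes called and the 3 most abundant of each other list, and the 5 nearest profiles of LHY, PRR1 and GI. Loci whose own annotation named another protein (13 MYB loci) were dropped. Scripts were tested on simulated data. One gene of the flowering-time list is not reported here.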

Additional observations from a re-analysis of the deposited data

How the results depend on the processing

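Of 792 fold changes of single clock genes recomputed under other settings, 782 stayed on the same side of the threshold, and 10 passed it, all without ZH11 treated replicate 1; 49 changed sign, none of them called. Leaving out 1 library at a time, the number of clock genes called ranged from 0 to 3 for treatment in ZH11, 0 to 0 for treatment in OE1, 0 to 0 for OE1 over ZH11 untreated, 0 to 4 for OE1 over ZH11 treated, and 0 to 3 for the difference of the treatment effects. Rescaling by TMM or median of ratios, pseudocounts of 0.1 and 5, no filter, only the groups compared, the length correction, a read-length term and no fold threshold each gave 0 of 8. Calls over all genes moved more: 73 as reported and 0 to 2635 over the settings for treatment in ZH11, 61 and 0 to 557 in OE1, 112 and 37 to 169 for OE1 over ZH11 untreated, 241 and 44 to 3854 treated, and 8 and 0 to 2709 for the difference; the cause was not tested. Replicate numbers were not taken as pairs in the main fit. The deviations of same-numbered libraries correlated at -0.28 to 0.23 over genes. With 2 libraries per group this cannot show whether the numbers mark a pairing. With the replicate number as a block, 0 of 8 clock genes were called in each comparison, and 21, 25, 76, 130 and 0 of all genes. With crossed numbers, 376 genes and 0 clock genes were called for OE1 over ZH11 treated. The averaged treatment effect, the crossed block and the length correction without treated ZH11 replicate 2 were chosen after seeing the data. With 2 pools per group, the ZH11 intervals of LHY, PRR73, GI and ELF3 as reported held both no change and a 2-fold change.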
